A study of Mus musculus with 4 samples.

Results

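The mitochondrial carriers of solute carrier family 25 (SLC25) were examined in mouse bone marrow-derived macrophages by RNA-seq. Members were the protein-coding genes of the deposited count table whose symbol begins with Slc25a and a digit, which gave 47 of 54532 genes (22046 of them protein-coding). Of these 47 members, 38 passed the low-count filter and were tested. The cells were transfected for 24 h with miR-204-3p mimics (2 libraries) or with mimics negative control (2 libraries). Both groups were macrophages grown from bone marrow for 7 days in medium with 30% conditioned medium of L929 cells, a source of macrophage colony-stimulating factor. The labels give neither strain, sex nor age. They leave unsaid if the 2 libraries per group had different animals or cultures as their source, so the p-values reflect library-to-library spread that may be technical only. The level of miR-204-3p itself was not measured here.

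SLC25 proteins sit mostly in the inner mitochondrial membrane, which is closed to charged metabolites, and each moves a narrow set of substrates between cytosol and matrix. They exchange ADP for ATP, import phosphate, carry citrate, malate and oxoglutarate out of or into the matrix, and bring in amino acids, cofactors, iron and glutathione. In macrophages, citrate export feeds lipid synthesis, and the malate and aspartate carriers link cytosolic NADH to respiration. The symbols do not cover the whole family, since the uncoupling proteins (Ucp1, Ucp2 and Ucp3) and the outer-membrane proteins Mtch1 and Mtch2 have names of their own.

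The transfected microRNA is shown first because its seed, bases 2 to 8 from the 5′ end and here in capitals, defines the sites sought in the carrier transcripts. The mature sequence is from RefSeq (GRCm38.p6, chr19:22750649-22750669, plus strand).
mmu-miR-204-3p: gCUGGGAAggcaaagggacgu

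A seed match was TTCCCAG (complement of the seed), TCCCAGA (complement of bases 2 to 7 followed by A), or TTCCCAGA, the 8mer that joins both, sought on the transcript strand of the longest annotated 3′ UTR of each gene. Of 37 tested members with an annotated 3′ UTR, 10 had a match (27%), against 3359 of 11276 tested protein-coding genes (29.8%). An 8mer was present in 1 member (2.7%) and in 6.23% of all these genes. The windows below show the matches of the members that differed between the groups and the single 8mer, with the match in capitals and 10 bases of transcript on either side (GRCm38, in the order Slc25a12, Slc25a16, Slc25a23, Slc25a24, Slc25a47).
Slc25a12, chr2:71272160-71272186, minus strand: gacatttgttTTCCCAGtttgtgatta
Slc25a12, chr2:71271447-71271473, minus strand: cgcctgtcctTTCCCAGcggctctgga
Slc25a16, chr10:62945741-62945768, plus strand: gccactgcgtTTCCCAGAggcagttatg
Slc25a23, chr17:57044573-57044599, minus strand: aaattccagaTCCCAGAttccttcaac
Slc25a23, chr17:57044427-57044453, minus strand: gcatctcataTCCCAGAcacaccctgg
Slc25a23, chr17:57044178-57044204, minus strand: ggctagtaacTCCCAGAtcccaggtcc
Slc25a24, chr3:109167253-109167279, plus strand: cttgtaccatTTCCCAGtgagcatctt
Slc25a47, chr12:108855860-108855886, plus strand: ctcagtgagtTTCCCAGgactgggtcc

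Total counts lay between 16295262 and 16837826 with the mimic of miR-204-3p and between 15899235 and 16446212 in the control libraries. Levels below are counts per 1000000 counts (CPM), scaled with TMM (trimmed mean of M-values) factors that were 1.13 to 1.14 in mimic and 0.878 to 0.886 in control libraries. Over all genes the median log2 fold change was 0.40 when only library size was used, against 0.04 with TMM, and fold changes below are those of the TMM scaling unless library size alone is named. Log2 fold changes are miR-204-3p mimic over control mimic, ± the standard error, and a transcript is said to rise or fall where the adjusted p of edgeR's quasi-likelihood test was under 0.05 over all 13186 tested genes.

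In the mimic-transfected macrophages, 11 carriers rose, 12 fell and 15 did not pass the threshold. The ADP/ATP carrier genes Slc25a5 and Slc25a4 and the phosphate carrier gene Slc25a3, which held most of the family's transcripts per base in control cells, were lower. So were the 5 tested members grouped as di- and tricarboxylate carriers. The mitochondrial iron carrier Slc25a37 and the ATP-Mg/phosphate carrier Slc25a24 rose, 3.55-fold and 2.95-fold, and Slc25a5, the main ADP/ATP carrier of these cells, fell 3.79-fold. The 23 changed carriers are 60.5% of those tested, and 60.8% of all tested genes changed, so the share of changed carriers was at the level of the whole transcriptome (61.9% of protein-coding genes). Separately, 28.9% of the carriers rose and 31.6% fell, against 31.1% and 29.7% of all tested genes and 32.2% and 29.7% of protein-coding ones. Differences of at least 2-fold were found for 4 higher and 5 lower carriers (10.5% and 13.2%, against 15.5% and 16.1% of all tested genes, or 23.7% against 31.6% together). The median log2 fold change was −0.07 over the carriers and 0.04 over all tested genes, and the median size of the change, in either direction, was 0.65 in both. The CPM of the groups did not overlap for 30 of 38 carriers (78.9%, against 80.7% of all tested genes). With library size alone 17 carriers rose and 9 fell. Slc25a5 shared 33.8% of its 50-base stretches with 9 other genes, mostly with Gm5560, so part of its reads may be counted elsewhere or not at all, while Gm5560 itself held 13 to 21 counts per library.

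**Figure D1:**
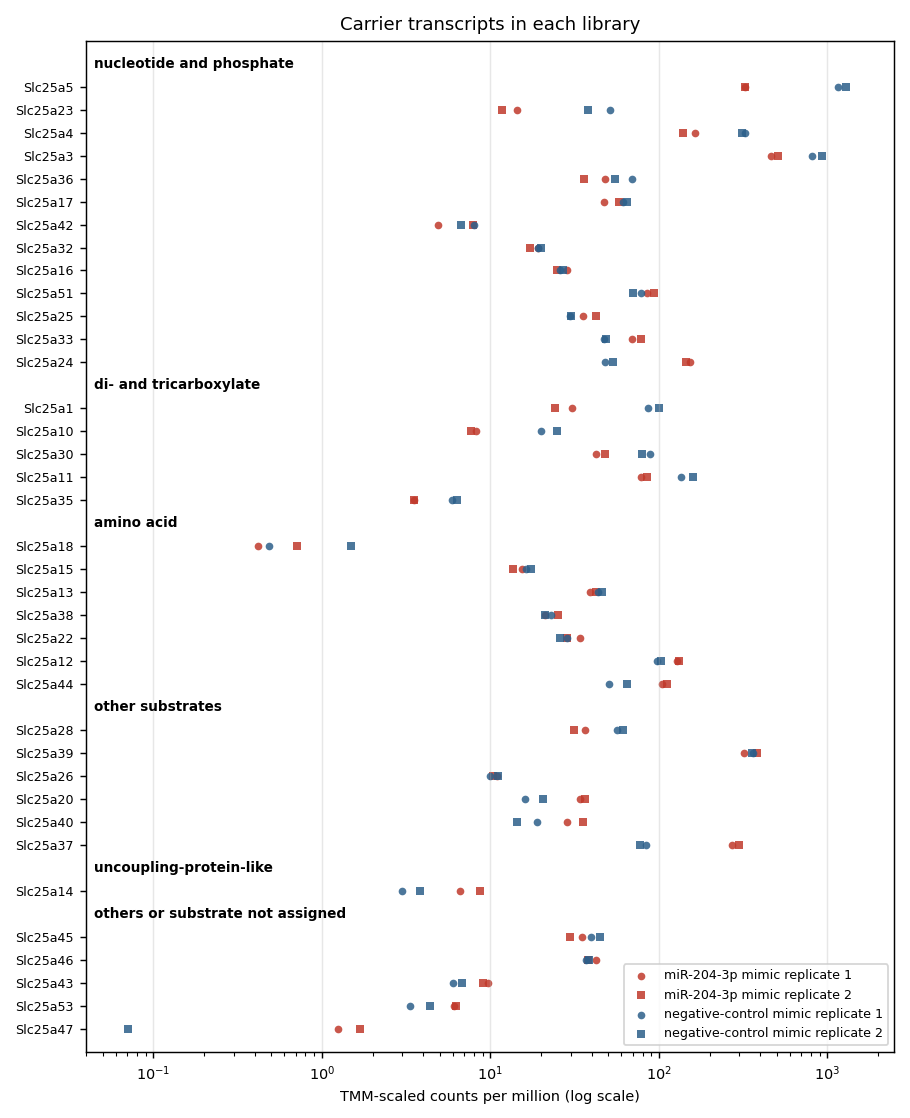
TMM-scaled CPM (log axis) of 37 of the 38 tested carriers in each library, grouped by substrate; red points are the miR-204-3p mimic libraries and blue points the negative-control mimic libraries. Slc25a5 lies at 323 and 324 CPM in mimic libraries against 1162 and 1286 CPM in control libraries, and Slc25a47 had no count in control replicate 1, which is therefore not drawn.

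Carriers of nucleotides, phosphate and cofactors had 14 tested members, of which 5 fell, 3 rose and 6 did not pass. Slc25a5 (ENSMUSG00000016319, mm10 chrX:36795651-36798807, plus strand), which exchanges matrix ATP for cytosolic ADP, had 323 and 324 CPM in mimic libraries, against 1162 and 1286 CPM in control libraries. Its log2 fold change was −1.92 ± 0.13 (adjusted p = 1.4e-08). Slc25a4, the other tested ADP/ATP carrier gene and the form that prevails in heart and muscle, had 164 and 140.0 CPM in mimic and 324 and 310 CPM in control libraries (log2 fold change −1.06 ± 0.13, adjusted p = 7.0e-06). Slc25a3, which imports the phosphate that ATP synthase uses, had 462 and 507 CPM in mimic libraries, against 808 and 927 CPM in control libraries (−0.84 ± 0.13, adjusted p = 5.8e-05). All 3 of these transcripts, which serve ATP synthesis, were lower in both mimic libraries than in either control library. They were also lower with library size alone, by 1.56 for Slc25a5, 0.70 for Slc25a4 and 0.48 for Slc25a3 on the log2 scale.

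The calcium-regulated ATP-Mg/phosphate carriers, which adjust the adenine nucleotide pool of the matrix, moved apart. Slc25a24 (chr3:109123149-109168457, plus strand) had 153 and 145 CPM in mimic libraries, against 47.7 and 53.5 CPM in control libraries (1.56 ± 0.13, adjusted p = 1.5e-07). Slc25a23 (chr17:57043711-57059863, minus strand) had 14.3 and 11.8 CPM in mimic libraries, against 51.3 and 38.1 CPM in control libraries (−1.77 ± 0.19, adjusted p = 1.6e-06). The groups did not overlap for either gene. The third tested member of this subgroup, Slc25a25, had 35.5 and 42.6 CPM in mimic and 29.6 and 30.1 CPM in control libraries (0.39 ± 0.15, adjusted p = 0.041). This call was lost with DESeq2 (adjusted p = 0.097), with no low-count filter (adjusted p = 0.066), with gene-length offsets (log2 fold change 0.16), and without mimic replicate 2 (0.23), control replicate 1 (0.36) or control replicate 2 (0.39). Slc25a25 overlaps Naif1, and counting was not stated to use strand.

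The carriers of pyrimidine nucleotides, which supply mitochondrial DNA and RNA synthesis, also went opposite ways. Slc25a33 had 69.1 and 78.0 CPM in mimic libraries, against 47.0 and 48.4 CPM in control libraries (0.63 ± 0.13, adjusted p = 0.0010). Slc25a36 had 47.8 and 36 CPM in mimic libraries, against 69.0 and 55.2 CPM in control libraries (−0.57 ± 0.17, adjusted p = 0.0085). The fall of Slc25a36 was not called with library size alone (log2 fold change −0.20) or without control replicate 1 (−0.41, adjusted p = 0.076). The other 6 tested genes of this group did not pass. Among them were the peroxisomal carrier Slc25a17 (log2 fold change −0.26), Slc25a42, which carries coenzyme A (−0.21), the folate carrier Slc25a32 (−0.11), Slc25a16 (0.01) and the NAD+ carrier Slc25a51 (0.27, adjusted p = 0.081). Without mimic replicate 2 the value of Slc25a17 was −0.44 and was called (adjusted p = 0.020).

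The 5 tested members grouped as di- and tricarboxylate carriers were all lower, with a median log2 fold change of −0.89. The groups were made by hand from background knowledge, so the shared direction holds for this grouping and was not tested with another. Slc25a1 (ENSMUSG00000003528, chr16:17925223-17928219, minus strand), which exports citrate for lipid synthesis, had 30.7 and 24.1 CPM in mimic libraries, against 85.7 and 101 CPM in control libraries. This is 3.4-fold lower (log2 fold change −1.77 ± 0.16, adjusted p = 2.8e-07). Slc25a10, the dicarboxylate carrier that exchanges malate or succinate for phosphate, had 8.21 and 7.69 CPM in mimic libraries, against 19.95 and 24.9 CPM in control libraries (−1.5 ± 0.20, adjusted p = 1.7e-05). For both genes the mimic libraries lay below both control libraries, with no overlap. Slc25a11, the oxoglutarate/malate carrier of the malate-aspartate shuttle, had 78.2 and 85.3 CPM in mimic libraries, against 136 and 160 CPM in control libraries (−0.86 ± 0.13, adjusted p = 6.2e-05). It overlaps Rnf167, which had 435 to 470 counts in mimic libraries and 516 to 624 counts in control libraries, while Slc25a11 had 1505 and 1564 counts against 1967 and 2258. Slc25a30 fell by 0.89 ± 0.14 (adjusted p = 5.8e-05) and Slc25a35, near 3.5 CPM in mimic and between 5.96 and 6.32 CPM in control libraries, fell by 0.79 ± 0.27 (adjusted p = 0.019). The substrates of these 2 are less settled, so their place in this group is less sure. The call of Slc25a35 was lost with DESeq2, with library size alone (log2 fold change −0.43) and without mimic replicate 1 (adjusted p = 0.055). The other 4 genes of the group were called lower with library size alone too.

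Among carriers of amino acids, 2 of 7 tested members rose and none fell. Slc25a44, which imports branched-chain amino acids, had 104 and 112 CPM in mimic libraries, against 50.7 and 64.8 CPM in control libraries (0.91 ± 0.14, adjusted p = 6.5e-05). Slc25a12, a calcium-activated aspartate/glutamate carrier of the malate-aspartate shuttle, had 129 and 131 CPM in mimic libraries, against 98.2 and 103 CPM in control libraries (0.36 ± 0.12, adjusted p = 0.018). The call of Slc25a12 was lost without mimic replicate 2 (log2 fold change 0.33), control replicate 1 (0.31) or control replicate 2 (0.39), and with gene-length offsets (0.14). Its close relative Slc25a13 had 39 and 42.6 CPM in mimic libraries, against 43.5 and 46.2 CPM in control libraries, and did not pass (−0.14 ± 0.14, adjusted p = 0.42). The glutamate carrier Slc25a22 (0.21 ± 0.16), the glycine carrier of haem synthesis Slc25a38 (0.07 ± 0.17) and the ornithine carrier Slc25a15 (−0.22 ± 0.18) did not pass either. Slc25a22 had 34.3 and 28.6 CPM in mimic libraries, against 28.5 and 25.8 CPM in control libraries. Slc25a18, the second glutamate carrier, was near the detection limit at 8 and 13 counts in mimic libraries and 7 and 21 counts in control libraries, and overlaps the abundant Atp6v1e1.

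The iron carriers moved in opposite directions. Slc25a37 (mitoferrin 1, ENSMUSG00000034248, chr14:69241848-69285112, minus strand), which brings iron into mitochondria for haem and iron-sulfur clusters and is best known from red cell precursors, had 273 and 298 CPM in mimic libraries. In control libraries it had 84.2 and 76.9 CPM, giving a log2 fold change of 1.83 ± 0.13 (adjusted p = 3.2e-08). Slc25a28 (mitoferrin 2), the form of most other cells, had 36.6 and 31.2 CPM in mimic libraries, against 56.2 and 61.3 CPM in control libraries (−0.79 ± 0.15, adjusted p = 3.1e-04). Both changes kept their direction and call with library size alone (2.19 and −0.43). Slc25a37 shared 6.99% of its 50-base stretches with Gm16867, which had no count. Of 7 erythroid markers, 3, Hbb-bt and Slc4a1 among them, had no count in any library. The whole list summed to 1.04 and 1.31 CPM in mimic and 1.32 and 0.710 CPM in control libraries. Most of this was Klf1, with 15 and 15 counts in mimic and 19 and 10 counts in control libraries. In mimic libraries Alas2 had 1 and 7 counts, Hbb-bs 1 and 2, and Hba-a1 3 and 0, against 0 in both control libraries.

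Slc25a39, which brings glutathione into mitochondria, was the second most abundant carrier per base of transcript over the 4 libraries, and it did not pass. It had 321 and 380 CPM in mimic libraries, against 360 and 355 CPM in control libraries (−0.03 ± 0.13, adjusted p = 0.86). With library size alone its value was 0.33 and was called (adjusted p = 0.031). Its relative Slc25a40 rose, at 28.6 and 35.7 CPM in mimic libraries against 18.9 and 14.3 CPM in control libraries (0.95 ± 0.19, adjusted p = 5.3e-04). Slc25a20, which carries acylcarnitines into the matrix for fatty acid oxidation, had 34.3 and 36.4 CPM in mimic libraries, against 16 and 20.4 CPM in control libraries (0.95 ± 0.17, adjusted p = 2.4e-04). Slc25a26, the carrier of the methyl donor S-adenosylmethionine, had 11 and 10.4 CPM in mimic libraries, against 9.91 and 11.1 CPM in control libraries, so the groups overlapped (0.02 ± 0.21).

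Slc25a14, a relative of the uncoupling proteins, had 6.60 and 8.67 CPM in mimic libraries, against 2.98 and 3.83 CPM in control libraries (1.16 ± 0.28, adjusted p = 0.0024). Of members without a settled substrate, Slc25a47, known as a liver carrier, had 24 and 31 counts in mimic libraries, against 0 and 1 count in control libraries. The ratio of its scaled counts was 41.7, with a 95% counting interval of 7.19 to 1678 that covers counting error only. Its fitted log2 fold change of 5.11 became 4.22 without control replicate 1 and 7.67 without control replicate 2. Slc25a53 rose by 0.67 ± 0.27 on the log2 scale (adjusted p = 0.046) and Slc25a45 fell by 0.38 ± 0.15 (adjusted p = 0.047). Neither call held with DESeq2 or gene-length offsets. That of Slc25a53 was also lost without mimic replicate 1, mimic replicate 2 or control replicate 1 (adjusted p = 0.096 to 0.23). That of Slc25a45 was lost without mimic replicate 2 or control replicate 2, with no low-count filter and with library size alone (log2 fold change −0.01). Slc25a46, an outer-membrane protein that acts on mitochondrial shape (0.09 ± 0.14), and Slc25a43 (0.54 ± 0.23, adjusted p = 0.053) did not pass. Slc25a43 was called higher with gene-length offsets (log2 fold change 0.75, adjusted p = 0.01) and with library size alone (0.91).

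The 9 members that were not tested had at most 4 counts in any library. Slc25a31 (the ADP/ATP carrier of germ cells), Slc25a21 and Slc25a27 had no count at all, where a count of 0 in a library allows up to 3 counts, or 0.156 to 0.213 CPM. Slc25a29 had 3 and 3 counts and Slc25a41 had 1 and 4 counts in mimic libraries, against 0 in both control libraries. Slc25a34 had 2 and 4 counts against 1 and 1, and Slc25a48 had 1 and 2 counts in each group. Slc25a2 had 1 and 0 counts in mimic and 2 and 0 counts in control libraries, and Slc25a54 had 1 and 0 counts against 0 and 0.

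**Figure D2:**
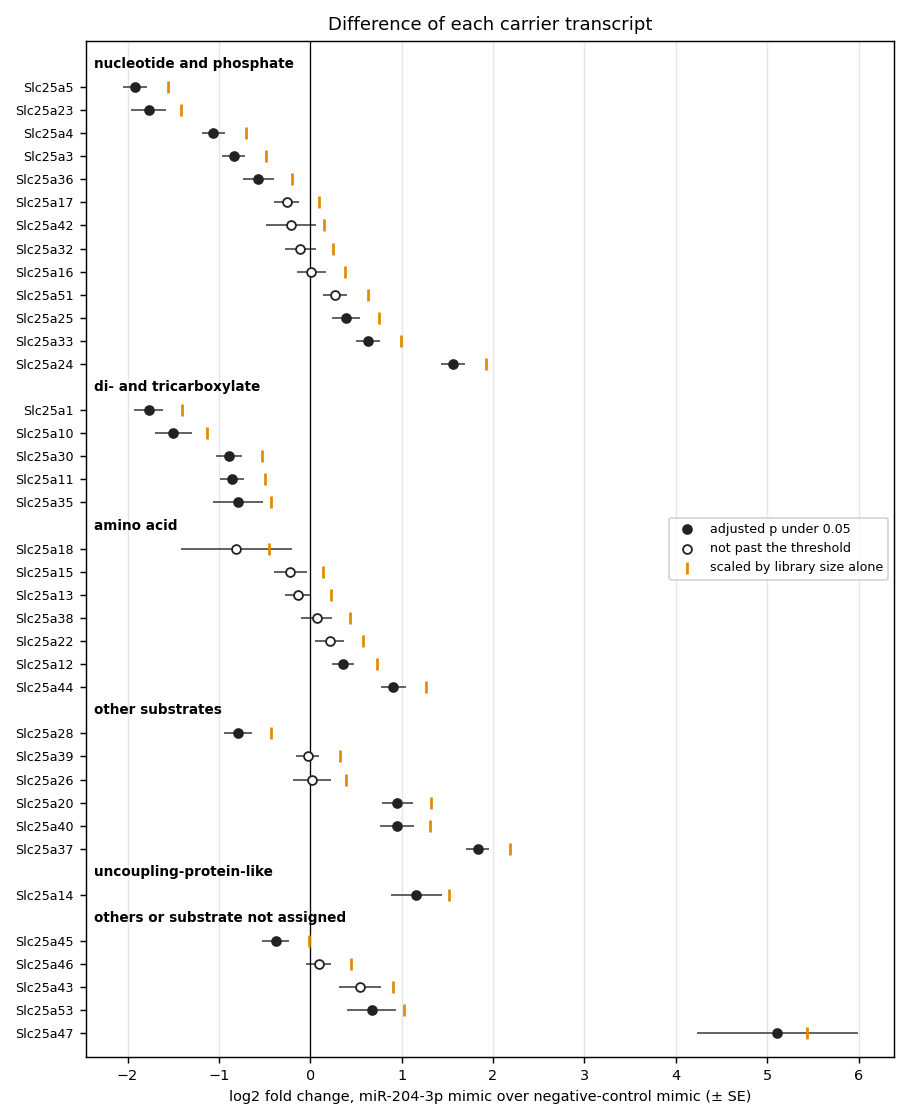
Log2 fold change (miR-204-3p mimic over negative-control mimic) of 37 of the 38 tested carriers by substrate; bars are standard errors, filled points passed the threshold, open points did not, and orange ticks give the value with library size alone. The 5 members grouped as di- and tricarboxylate carriers lie between −1.77 and −0.79, and Slc25a37 at 1.83 and Slc25a24 at 1.56 lie farthest right apart from the low-count Slc25a47.

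The make-up of the family's transcripts differed between the groups, and this measure does not depend on how libraries are scaled to each other. Per base of transcript, Slc25a5 held 22.8% and 22.1% of the summed level of all members in mimic libraries, against 46.9% and 48.2% in control libraries. Slc25a3 held 9.71% and 10.3% in mimic against 9.67% and 10.3% in control libraries, so its share was alike. Slc25a39 held 13.6% and 15.5% against 8.68% and 7.95%, and Slc25a37 held 5.29% and 5.57% against 0.930% and 0.788%. Together Slc25a5, Slc25a3 and Slc25a4 made up 40.7% and 39.1% in mimic libraries and 65.8% and 66.6% in control libraries. An exact permutation test of the Slc25a5 share, two-sided, gave p = 0.333, which is the smallest p that 2 against 2 libraries allow. Of all counts in a library, the members held 0.318% and 0.328% in mimic and 0.350% and 0.377% in control libraries. Without Slc25a5, Slc25a3 and Slc25a4, they held 0.210% and 0.219% in mimic libraries, against 0.149% and 0.153% in control libraries. Shares of all counts, unlike the shares within the family, rest on library size alone. With that scaling the median log2 fold change over all tested genes was 0.40.

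**Figure D3:**
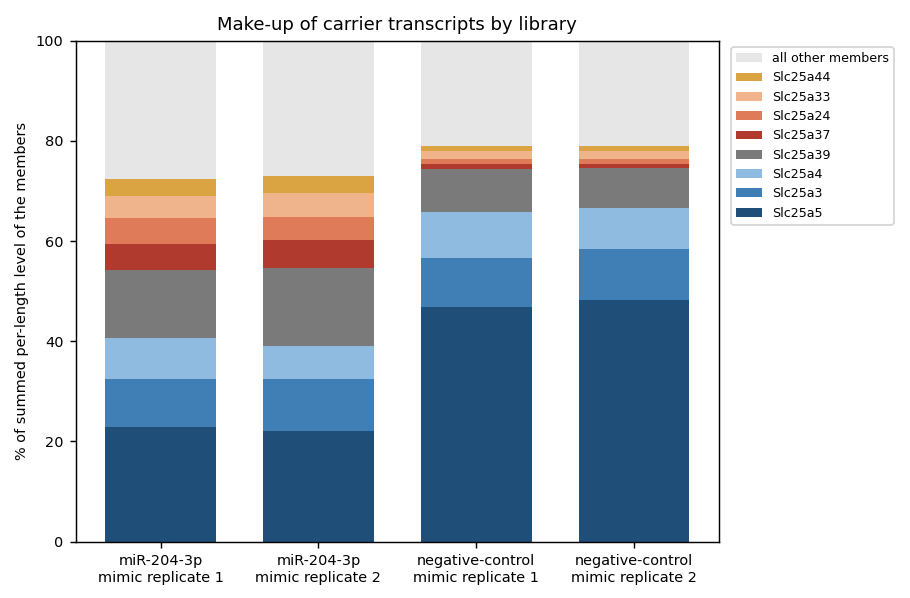
Share of each carrier in the summed per-length level of all 47 members (counts divided by gene length, in percent of the members' sum), by library, with mimic libraries on the left. Slc25a5 takes 22.8% and 22.1% in the mimic libraries against 46.9% and 48.2% in the control libraries.

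Shares within pairs of related carriers were compared in the same way for the 7 pairs with both genes tested, with an exact two-sided permutation test that cannot go below 0.333. Slc25a28 held 34.8% and 29.4% of the mitoferrin pair in mimic libraries, against 72.6% and 76.0% in control libraries. The level of these shares depends on the length used, and with the longest annotated transcript Slc25a28 averaged 15.9% in mimic and 53.7% in control libraries. Slc25a4 held 26.2% and 23.2% of the ADP/ATP carrier pair in mimic libraries, against 16.3% and 14.4% in control libraries. Slc25a12 held 63.0% and 61.4% of its pair with Slc25a13 in mimic libraries, against 53.9% and 53.7% in control libraries. Slc25a33 held 88.0% and 91.7% of the pyrimidine carrier pair against 77.6% and 81.7%. Slc25a24 held 90.8% and 88.6% of its pair with Slc25a25 against 78.7% and 80.3%. In both of these pairs the gene that was already the larger in control libraries held more in mimic libraries. Slc25a39 held 97.1% and 97.0% against 98.3% and 98.7% beside Slc25a40. Each of these 6 pairs had groups that did not overlap, at an exact permutation p of 0.333. The shares of Slc25a18 beside Slc25a22 overlapped, at 3.67% and 7.22% in mimic and 5.07% and 15.4% in control libraries (exact permutation test, p = 0.667). With the longest annotated transcript as the length, the difference for Slc25a24 was 15.6 percentage points, against 10.2 with the table's length.

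**Figure D4:**
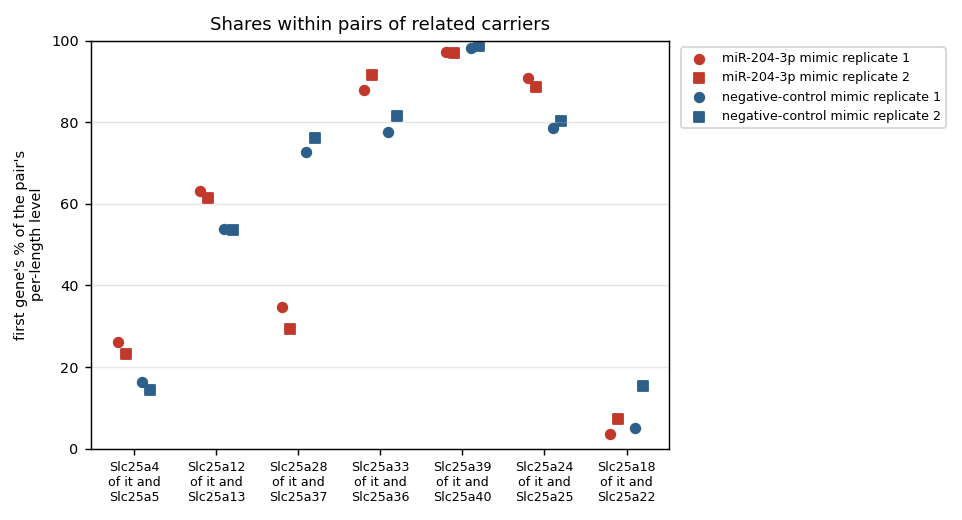
Percentage of the pair's summed per-length level held by the first-named gene, for 7 pairs of related carriers, in each miR-204-3p mimic library (red) and each negative-control mimic library (blue). In the mitoferrin pair Slc25a28 lies at 34.8% and 29.4% in mimic libraries against 72.6% and 76.0% in control libraries.

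Seed matches were next counted by direction of change. Of the 12 carriers that fell, 1 had a match, Slc25a23, with 3 sites of the TCCCAGA type, and none had TTCCCAG (8.33% with any match, against 26.4% of all protein-coding genes that fell, of which 19.3% had TTCCCAG). Of the 11 that rose, 3 had a TTCCCAG site, namely Slc25a12 with 2, Slc25a24 and Slc25a47 (27.3%, against 24.8% of all protein-coding genes that rose), and no other match was found in these 11 (32.8% of all that rose had a match of any kind). The 8mer gene Slc25a16 had 28.4 and 24.9 CPM in mimic libraries, against 25.8 and 26.9 CPM in control libraries. The other 5 tested members with a match, Slc25a22, Slc25a38, Slc25a39 and Slc25a51 among them, did not pass the threshold. The median log2 fold change was 0.14 for the 10 members with a match and −0.22 for the 27 without, and 0.12 and 0.01 for all tested protein-coding genes with and without. The median 3′ UTR length was 839 bases in carriers that fell and 1554 bases in those that rose, against 876 and 1383 bases in all protein-coding genes that fell and rose, and a longer 3′ UTR has more room for a match. A match is a description of the transcript and not a measured binding site.

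**Figure D5:**
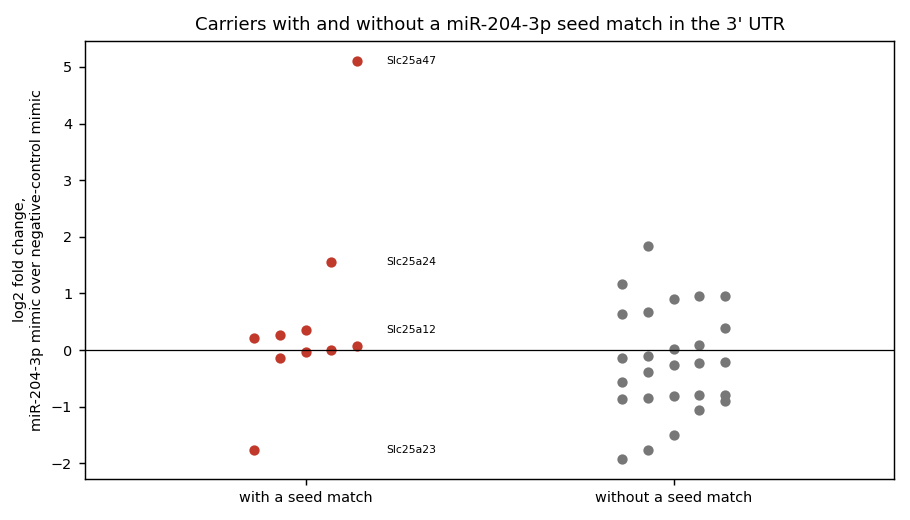
Log2 fold change (miR-204-3p mimic over negative-control mimic) of the 37 tested carriers with an annotated 3′ UTR, for the 10 with a seed match on the left and the 27 without on the right; horizontal position within a column only separates points. The members with a match have a median of 0.14 and those without a median of −0.22.

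Family members with other names, and genes that work with the carriers, were looked at by lists. The counts in these lists, and in the substrate groups above, stand beside 31.1% of all tested genes that rose and 29.7% that fell. With library size alone 6144 genes rose and 2516 fell over the whole transcriptome. Ucp2, the uncoupling protein of immune cells, had 230 and 243 CPM in mimic libraries, against 1288 and 1294 CPM in control libraries (−2.45 ± 0.13, adjusted p = 1.2e-09). This is a larger fall than that of any SLC25-named member. Mtch1, at 181 and 178 CPM in mimic and 248 and 287 CPM in control libraries, fell by 0.58 ± 0.13, a call lost with library size alone (−0.21). Mtch2 did not pass (0.01 ± 0.13), Ucp3 had at most 3 counts in a library, and Ucp1 had none.

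The import machinery that inserts carriers into the inner membrane had 15 tested genes, of which 6 fell and 2 rose (5 higher and 3 lower with library size alone). Tomm7, a small subunit of the outer-membrane translocase, had 16 and 12 CPM in mimic libraries, against 91.6 and 94.9 CPM in control libraries (−2.73 ± 0.16). Timm13, an intermembrane-space chaperone, fell by 1.37 ± 0.16, and the receptor gene Tomm20 by 0.77 ± 0.15. Agk, a subunit of the carrier translocase, had 48.1 and 44.8 CPM in mimic libraries, against 22.3 and 28.4 CPM in control libraries (0.87 ± 0.16), and Timm8a1 rose by 0.42 ± 0.15, but not without mimic replicate 2 or either control replicate, with DESeq2 (adjusted p = 0.079) or with no low-count filter (adjusted p = 0.057). Timm8a1 shared 41% of its 50-base stretches with Gm9797. Of 21 other mitochondrial transporters, 6 fell and 3 rose (2 and 7 with library size alone). The outer-membrane channel gene Vdac1 (298 and 325 CPM in mimic, 571 and 564 CPM in control libraries) and the cholesterol-binding protein gene Tspo (112 and 97.3 CPM in mimic, 253 and 248 CPM in control libraries) fell, as did the calcium uniporter subunit Smdt1 (−0.64 ± 0.12, and −0.27, not called, with library size alone). Vdac3 rose by 0.84 ± 0.14 and Mcub, an inhibitory subunit of the same uniporter, by 0.96 ± 0.17. Vdac3 shared 11.8% of its 50-base stretches with Vdac3-ps1, which had 697 and 537 counts in mimic and 374 and 387 counts in control libraries. Abcb6 rose by 2.38 ± 0.56 from low counts and shares 50% of its 50-base stretches with an overlapping gene model.

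Enzymes on either side of the citrate and malate carriers fell in 5 and rose in 2 of 9 cases (4 and 3 with library size alone). Over all tested genes, 29.7% fell and 31.1% rose. Acly, which splits exported citrate into acetyl-CoA and oxaloacetate, had 224 and 192 CPM in mimic libraries, against 356 and 391 CPM in control libraries (−0.85 ± 0.13, adjusted p = 6.6e-05). Cytosolic malate dehydrogenase Mdh1 fell by 0.82 ± 0.13 and the matrix isocitrate dehydrogenase Idh2 by 1.64 ± 0.12. Me1, the malic enzyme that makes cytosolic NADPH, had 116 and 130.2 CPM in mimic libraries, against 14 and 16.4 CPM in control libraries (3.02 ± 0.15, adjusted p = 8.1e-10). Got1, the cytosolic transaminase of the malate-aspartate shuttle, rose by 0.84 ± 0.13. Me1 shared 22.9% of its 50-base stretches with other genes.

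Around the acylcarnitine carrier Slc25a20, 1 of 8 tested genes of the carnitine shuttle rose and 2 fell (5 and 1 with library size alone). Plasma-membrane carnitine transporter Slc22a5 rose by 0.66 ± 0.19, not without mimic replicate 2 (0.53, adjusted p = 0.056), and shared 26.3% of its 50-base stretches, mostly with Slc22a21. The dehydrogenase gene Acadvl fell by 1.17 ± 0.14 and the acetyltransferase gene Crat by 0.65 ± 0.14, the second of these not with library size alone (−0.29). Of 12 genes of mitochondrial folate and glutathione metabolism, 5 rose and 3 fell (7 and 0 with library size alone). Aldh1l2, which makes NADPH from formyl-folate, had 161 and 134 CPM in mimic libraries, against 45.4 and 52.3 CPM in control libraries (1.59 ± 0.14), Amt rose by 1.59 ± 0.35 and Mthfd2 by 0.70 ± 0.15. Gpx4 fell by 0.60 ± 0.12, Glrx2 by 0.58 ± 0.16 and Mthfd1l by 0.36 ± 0.13, the last of these not without mimic replicate 1 (−0.32) or control replicate 2 (−0.28). None of these 3 was called with library size alone, and Gpx4 shared 34.7% of its 50-base stretches with Gpx4-ps2. Acadvl overlaps Dvl2, Crat overlaps Dolpp1 and Aldh1l2 overlaps D10Wsu102e, and counting was not stated to use strand.

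Genes of haem and iron-sulfur cluster synthesis, which use the iron that the mitoferrins bring in, fell in 6 and rose in 3 of 15 cases (3 and 7 with library size alone). Over all tested genes, 29.7% fell and 31.1% rose. Iscu, the scaffold of iron-sulfur cluster assembly, had 59.8 and 57.4 CPM in mimic libraries, against 161 and 160 CPM in control libraries (−1.45 ± 0.12, adjusted p = 2.1e-07). The cluster transfer gene Glrx5 fell by 0.88 ± 0.13. Uros, a haem synthesis gene, rose by 0.86 ± 0.20, Isca1 by 0.62 ± 0.15 and Lyrm4 by 0.54 ± 0.19. Uros, at 363 and 366 counts in mimic and 135 and 170 counts in control libraries, overlaps Bccip. Bccip had 1062 and 970 counts in mimic and 615 and 717 counts in control libraries. Lyrm4 overlaps Fars2, and counting was not stated to use strand. The call of Isca1 was lost with gene-length offsets, and that of Lyrm4 with DESeq2 and without mimic replicate 2 or control replicate 1. Isca1 shared 11.9% and Iscu 11.3% of their 50-base stretches with other genes.

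The labelled cell type was checked against its markers. All 10 macrophage markers were detected, and of 9 tested 8 fell and Fcgr1 rose, with a summed level of 3722 and 3745 CPM in mimic and 17632 and 19572 CPM in control libraries, most of it Lyz2. Markers of other cells moved with the groups too. The 5 B cell markers (Ms4a1 at 0) summed to 3.38 and 3.71 CPM in mimic libraries, against 250 and 225 CPM in control libraries, and all 3 tested ones fell. The 8 neutrophil markers (Ly6g at 0) summed to 1.87 and 1.80 CPM against 136 and 177 CPM, and 2 of 3 tested ones fell. The 5 dendritic cell markers summed to 4.37 and 4.58 CPM against 46.8 and 38 CPM, and 2 of 4 fell. Of T and NK cell markers only Lck was tested, and it rose, at a summed level of 28.2 and 27.2 CPM against 5.06 and 4.40 CPM with Cd3e, Cd3g, Nkg7 and Klrb1c at 0. Mast cell and basophil markers (Mcpt8 at 0) summed to 2.18 and 2.24 CPM against 0.139 and 0.568 CPM, and fibroblast markers (Col3a1 at 0) to at most 0.600 CPM in any library. The part of these cells in the carrier levels was not tested, and in bulk RNA fewer cells of a type and less RNA per cell cannot be told apart.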

How the data were processed

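RNA-seq of 4 libraries was analysed, 2 per group, made from 1 µg of total RNA each, per the labels' protocols. The authors deposited raw counts per gene, whole numbers, with symbol, biotype, coordinates and length, per the file headers. HISAT2 and mm10 are named in the submitters' processing notes; versions, counting program and strand setting are not given in the sources used here. No sample column was left unused.

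Counts were tested with edgeR 4.0.16 in R 4.3.3 (glmQLFit and glmQLFTest, two-sided, group only, TMM, filterByExpr, Benjamini-Hochberg at 0.05 over 13186 genes). Standard errors came from the F statistic. The test was run on simulated data for 12889 genes and recovered 21 of 50 genes given a 1.5-fold change, 30 of the 50 set to 2-fold and 46 of the 50 set to 8-fold, with 2 false calls among 144. Only 50 genes at each fold of 1.5, 2, 4 and 8 were changed there, whereas 60.8% of tested genes were called in these data. How scaling and calls fare under so broad a change was not tested. Per-length levels divided counts by the table's gene length and were rescaled to one fixed sum per library. GENCODE vM21, on the assembly of mm10, gave 3′ UTRs, transcripts and the 50-base stretches shared with other genes; 98.3% of shared gene identifiers had the same coordinates. Alternatives were DESeq2 1.42.0, library size alone, no low-count filter, each library left out, gene-length offsets, a minimum fold of 1.5, a replicate block, another length and 8mer sites alone. Values are given for members past the threshold and 2-fold, the 5 most abundant, and related pairs, and from each list for at most 3 genes per direction, those of lowest p. Members and lists were chosen with earlier results of these data known. Protein sequences were not used here, and the individual values of a few genes are not reported here.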

Additional observations from a re-analysis of the deposited data

How the results depend on the processing

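All 23 changed carriers kept their direction under the 10 other fits, and 15 of them kept their call in every fit, while the other 8 lost it at least against a minimum fold of 1.5. With library size alone 17 carriers rose, as against 11 (Slc25a22, Slc25a38, Slc25a39, Slc25a43, Slc25a46 and Slc25a51 besides), and 2516 genes fell, as against 3921, while 6144 genes rose. Against a minimum fold of 1.5, 7 carriers rose and 8 fell, and over all genes 2213 rose and 2257 fell. Leaving out each library in turn gave 8 to 10 higher and 11 to 12 lower carriers, and 3547 to 3797 higher and 3601 to 3881 lower genes. Among the genes named here, the sign turned only in carriers, and in Mtch2, that had not passed the threshold, and the cause was not tested. With library size alone this gave 0.33 for Slc25a39, 0.10 for Slc25a17, 0.23 for Slc25a13, 0.25 for Slc25a32, 0.14 for Slc25a15 and 0.15 for Slc25a42. With gene-length offsets it gave 0.07 for Slc25a39, −0.07 for Slc25a16, −0.06 for Slc25a26 and −0.22 for Mtch2. Over the fits without 1 library, values ranged from −0.18 to 0.09 for Slc25a39, −0.61 to 0.09 for Slc25a42, −0.09 to 0.19 for Slc25a38, −0.09 to 0.08 for Slc25a16, −0.07 to 0.10 for Slc25a26, −0.10 to 0.09 for Mtch2 and −1.41 to 0.20 for Slc25a18. Counting 8mer sites alone, 2.7% of carriers had a site, as against 27%. With a replicate block 11 carriers rose and 12 fell, and over all genes 4111 rose and 3959 fell. The main fit had no block because the labels do not say that the replicate numbers pair libraries. Deviations of same-numbered libraries had a correlation of 0.024. The share of Slc25a5 fell by 25 percentage points with the longest transcript as length, a choice made after seeing the data, as against 25.1. The depth limits what can be said of Slc25a18, Slc25a47 and the 9 untested members.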
